A study of Mus musculus with 12 samples.

Results

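Genes of the aryl hydrocarbon and xenobiotic response, 10 in number, were followed in mouse heart. They were taken by their NCBI Gene identifiers, matched to the symbols Ahr, Arnt, Ahrr, Tiparp, Cyp1a1, Cyp1b1, Por, Ephx1, Gsta4 and Gstm1, and all 10 were among the 18079 genes of the table. The RNA came from left ventricular muscle of 12 C57BL/6 mice, with 3 mice in each of 4 groups. DMSO+Sham mice received the vehicle DMSO and a sham operation, and hispidulin+Sham mice received hispidulin at 20 mg/kg/day and a sham operation. DMSO+AB and hispidulin+AB mice received the same treatments with aortic banding (AB), a constriction of the descending aorta that loads the heart with pressure. Hispidulin, a methoxylated plant flavone, or DMSO was injected into the peritoneum once daily from 1 day ahead of surgery until 4 weeks after it. Mice were 8 weeks old at surgery and 12 weeks old at harvest, and all 12 carried the injections and an operation. Hispidulin was thus given for the whole time between surgery and harvest, and the question asked of these 10 genes was whether a flavone leaves a xenobiotic trace in the heart.

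The aryl hydrocarbon receptor (AhR) is a transcription factor that waits in the cytosol, is activated by planar aromatic ligands, several flavonoids among them, and pairs with ARNT in the nucleus. The pair binds short DNA elements, called xenobiotic response elements, and induces CYP1 oxidases together with its own brakes, the AhR repressor Ahrr and the ADP-ribosyltransferase Tiparp. Oxidised products are passed on to epoxide hydrolase and to glutathione transferases, and Cyp1a1 RNA is the usual readout of an active receptor.

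Elements with the core letters GCGTG are shown for the oxidases and the feedback genes, since these are the genes by which receptor activity is commonly read. The windows are the 250 bases ahead of the RefSeq transcription start on GRCm38.p6, at Cyp1a1 (chr9:57697363-57697612, plus strand), Cyp1b1 (chr17:79715062-79715311, minus strand), Tiparp (chr3:65528197-65528446, plus strand) and Ahrr (chr13:74292332-74292581, minus strand). Each is written from 5′ to 3′ in the direction of the gene, with GCGTG, or CACGC where the core lies on the other strand, in capitals.
Cyp1a1: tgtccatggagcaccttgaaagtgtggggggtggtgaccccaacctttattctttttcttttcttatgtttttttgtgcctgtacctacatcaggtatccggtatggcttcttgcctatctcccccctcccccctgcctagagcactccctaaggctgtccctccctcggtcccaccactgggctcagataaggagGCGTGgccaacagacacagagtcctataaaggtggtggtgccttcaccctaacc
Cyp1b1: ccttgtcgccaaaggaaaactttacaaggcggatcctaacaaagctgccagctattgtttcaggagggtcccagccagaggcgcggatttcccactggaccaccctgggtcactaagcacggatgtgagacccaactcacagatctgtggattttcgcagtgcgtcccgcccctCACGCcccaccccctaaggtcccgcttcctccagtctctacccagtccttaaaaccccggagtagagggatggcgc
Tiparp: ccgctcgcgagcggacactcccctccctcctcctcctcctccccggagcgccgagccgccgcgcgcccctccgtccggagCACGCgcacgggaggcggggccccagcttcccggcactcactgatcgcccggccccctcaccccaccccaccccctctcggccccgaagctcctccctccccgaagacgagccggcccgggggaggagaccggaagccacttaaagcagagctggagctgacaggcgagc
Ahrr: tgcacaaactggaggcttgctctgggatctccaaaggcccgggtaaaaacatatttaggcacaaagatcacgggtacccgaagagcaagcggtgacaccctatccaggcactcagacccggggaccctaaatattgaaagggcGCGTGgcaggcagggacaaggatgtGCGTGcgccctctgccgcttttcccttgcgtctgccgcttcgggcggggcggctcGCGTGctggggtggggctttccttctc

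Promoter windows were found in RefSeq for 8 of the 10 genes, and 7 of the 8 held GCGTG on either strand at least once, against 28.2% of all 32851 windows of this length. Ahrr and Por held it 3 times each, and Ephx1 held none. The longer form TNGCGTG, which contains the core, was found in the Ahrr window only among the 8 genes, and in 4.1% of all windows. The enhancer of Cyp1a1 that carries several such elements lies farther upstream and was not searched.

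Values are FPKM, reads scaled to the length of the transcript and to the reads mapped in the library, as the authors deposited them. Libraries held 535235 to 567027 FPKM in total, and the sequencing depth is unknown. Differences are log2 fold changes of FPKM + 1 from 1 limma model of all 12 mice, with p-values adjusted over the 11664 genes that reached an FPKM of 1 in at least 3 mice. Adding 1 understates the change of a gene with a low FPKM. The 6 markers of cardiomyocytes summed to between 29517 and 44888 FPKM and the 5 markers of hepatocytes to at most 2.31. Atrial markers varied widely, Myl7 from 0.24 to 333 FPKM, Myl4 from 2.26 to 325 and Sln from 0 to 116. The 4 atrial markers summed to 1740 in the third hispidulin+Sham mouse, against 207 and 267 in the others of its group. The part of atrial tissue in the values was not tested. Of the DMSO+Sham mice, the third stood apart. It lay outside the range of the other 11 mice for 35.4% of the genes tested, as did the third DMSO+AB mouse for 37.4%, against 3.88% to 23.4% for the other 10 mice. Its clock genes also stood apart, with Arntl (a core clock factor of the ARNT family) at 10.4 FPKM against 0.78 to 2.76 in the other mice and the clock output Dbp at 17.6 against 42.1 to 95.2. Of 15 clock genes, chosen after their values were seen, this mouse was outside the range of the others for 12, above it for 4 and below it for 8. The second hispidulin+Sham mouse was outside for 7 of them and the third DMSO+AB mouse for 5. The time of day at harvest is not given in the sources used here. Among the 10 genes followed, the third DMSO+Sham mouse had the highest FPKM of all mice for Arnt, Por, Gsta4 and Gstm1 and the lowest for Ephx1. The third DMSO+AB mouse had the highest FPKM for Ephx1 and the lowest for Arnt and Tiparp. The averaged differences of the 9 genes tested are therefore also given without either mouse.

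With hispidulin, none of the 9 genes that could be tested (0 of 9) passed an adjusted p of 0.05 by limma in hispidulin+AB against DMSO+AB (0% of all genes tested), in hispidulin+Sham against DMSO+Sham (0%) or averaged over both operations (0%). At an unadjusted p under 0.05 the counts among the 9 genes were 0, 1 and 0, against 3.1%, 2.46% and 2.97% of all genes tested. The interaction of hispidulin and AB likewise gave 0 of the 9 genes, 0 at an unadjusted p under 0.05, and 0% and 2.48% of all genes. Averaged over both operations, the 9 differences ran from -0.10 for Por to 0.24 for Ahr on the log2 scale, with a median of 0.10 against 0.00 for all genes tested. Without the third DMSO+Sham mouse the averaged differences were 0.23 for Ahr, -0.01 for Arnt, 0.29 for Tiparp, -0.14 for Cyp1a1, 0.21 for Cyp1b1, -0.06 for Por, 0.11 for Ephx1, 0.11 for Gsta4 and 0.17 for Gstm1, and 0 of the 9 passed. Leaving out the third DMSO+AB mouse gave 0.18, -0.09, 0.02, 0.08, 0.07, -0.07, 0.26, 0.05 and 0.15 in the same order of genes, and 0 passed. With all 12 mice, the 95% intervals ended, at the upper side, between 1.04-fold for Por and 1.64-fold for Tiparp on the FPKM + 1 scale. Comparisons of hispidulin with DMSO and of AB with Sham share mice, and hispidulin+AB against DMSO+AB shares the hispidulin+AB mice with hispidulin+AB against hispidulin+Sham.

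After AB, averaged over both treatments, 2 of the 9 genes had a lower FPKM with an adjusted p under 0.05 by limma and 0 had a higher one, against 3.87% lower and 3.52% higher of all genes tested (7.39% in both directions). The 2 genes were Cyp1a1, the inducible aryl hydrocarbon oxidase, and Gstm1, a glutathione transferase of the mu class. At an unadjusted p under 0.05 there were 3, with Cyp1b1 added (23.3% of all genes). Within DMSO-treated mice 0 of the 9 passed (5.21% of all genes, 2.5% higher and 2.71% lower) and 3 had an unadjusted p under 0.05 by limma (20.4%). Within hispidulin-treated mice 0 passed (0%) and 2 had an unadjusted p under 0.05 (7.26%). In bulk RNA, fewer cells of a type and less RNA per cell cannot be told apart. Separation of the groups was also counted. Between hispidulin+AB and DMSO+AB mice, 0 of the 10 genes were without overlap, against 7.88% of all genes tested (4.23% higher and 3.65% lower). Between hispidulin+Sham and DMSO+Sham mice there were 2, against 5.6%, namely Ephx1 (higher) and Por (lower). With all 6 hispidulin mice set against all 6 DMSO mice there were 0, against 0.0257% (0.00857% higher and 0.0171% lower).

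For AB within DMSO-treated mice, 1 of the 10 genes (Gstm1, lower) was without overlap, against 17.9% of all genes (7.18% higher and 10.8% lower). Within hispidulin-treated mice there were 5, against 20.9%, of which Ahrr, Cyp1a1, Ephx1 and Gstm1 were lower (11.8%) and Cyp1b1 was higher (9.14%). Over all 6 AB and 6 Sham mice there were 0, against 4.96% (2.15% higher and 2.8% lower). Without the third DMSO+AB mouse the averaged AB differences were -0.07 for Ahr, -0.02 for Arnt, 0.40 for Tiparp, -1.145 for Cyp1a1 (adjusted p = 0.0482 by limma), 0.47 for Cyp1b1, -0.06 for Por, -0.04 for Ephx1, -0.18 for Gsta4 and -0.48 for Gstm1 (adjusted p = 0.0309), and 2 passed. The number that passed the test after AB depended on single mice and settings and ran from 0 to 3, as set out with each gene.

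**Figure D1:**
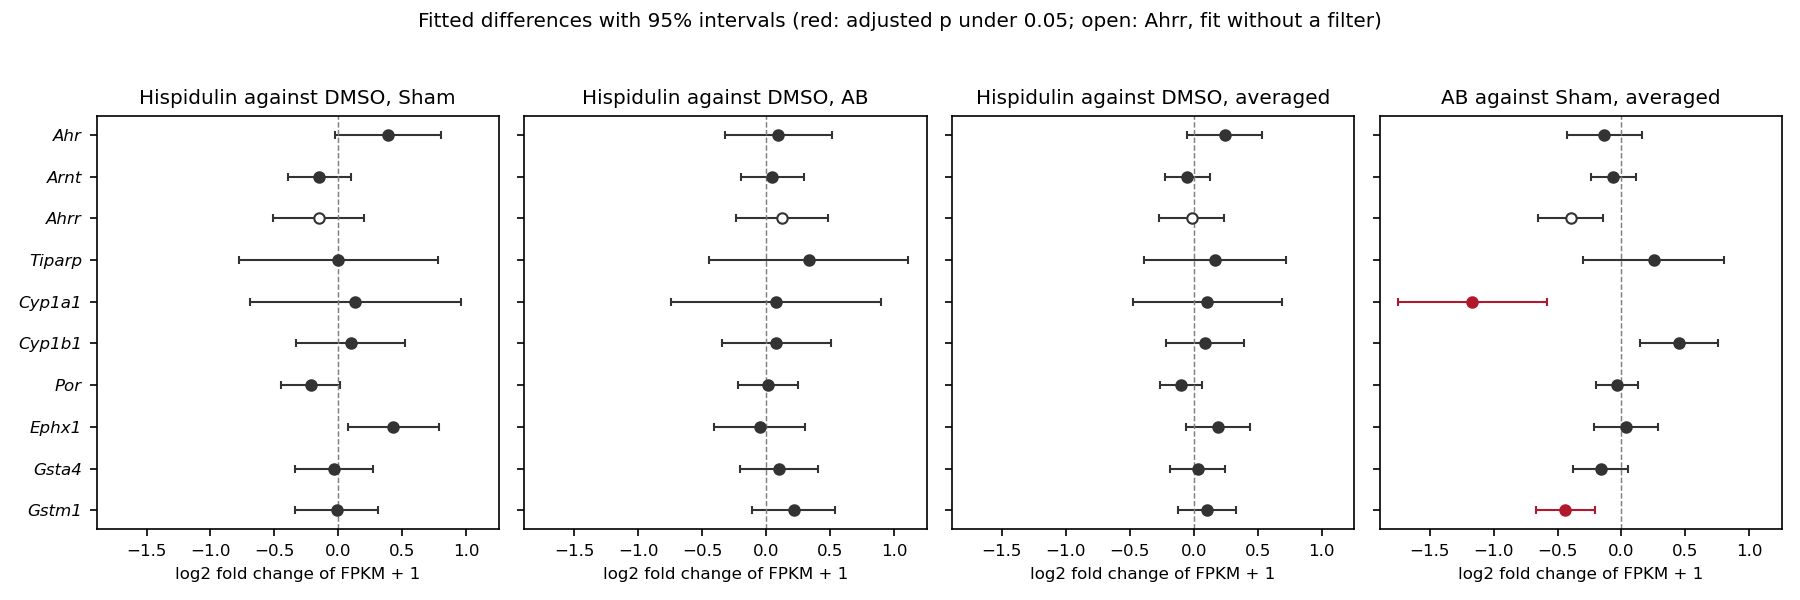
Log2 fold changes of FPKM + 1 (x axis) with 95% intervals for the 10 genes (y axis), from left to right for hispidulin against DMSO in Sham mice, in AB mice and averaged, and for AB against Sham averaged over both treatments. All intervals for hispidulin averaged include 0, and in the right panel Cyp1a1 (-1.17) and Gstm1 (-0.44) are drawn in red because their adjusted p was under 0.05. Ahrr, drawn open, was fitted without a filter.

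Ahr, the receptor itself, was a gene of low level, with a mean of 2.15 FPKM over the 12 mice. Ahr FPKM were 2.67, 1.24 and 1.78 in DMSO+Sham mice and 3.09, 2.06 and 3.09 in hispidulin+Sham mice. They were 2.09, 2.13 and 1.41 in DMSO+AB mice and 1.83, 2.38 and 1.98 in hispidulin+AB mice. The hispidulin+Sham mice held the 2 highest values of all 12, but they overlapped with DMSO+Sham mice through the first of these. Same-numbered mice are different animals that the labels do not pair. Ahr was higher with hispidulin in 3 of 3 same-numbered comparisons, and the share of all genes with that pattern was not counted. Every group holds each number, so a block for it leaves the difference in Sham mice at 0.39 (adjusted p = 1.00 by limma). The difference in Sham mice was 0.39 (SE 0.19, 95% interval -0.03 to 0.80, unadjusted p = 0.0644 and adjusted p = 1.00 by limma), and averaged over both operations it was 0.24 (SE 0.13, -0.05 to 0.54). The difference in Sham mice was 0.22 without the second DMSO+Sham mouse, 0.57 without the first and 0.09 with library weights. An exact permutation test of the averaged difference, within each operation, gave p = 0.12. Without the second DMSO+Sham mouse the averaged difference was 0.16. After AB the averaged difference was -0.14 (-0.43 to 0.16), and ran from -0.22 without the second DMSO+Sham mouse to -0.04 without the first.

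Arnt, the nuclear partner shared by AhR and the hypoxia factors, lay at a mean of 14.9 FPKM and varied least of the 10 genes, with a coefficient of variation of 9.47% over the 12 mice. Arnt FPKM were 15.3, 14.8 and 18.2 in DMSO+Sham mice and 13.4, 13.8 and 15.95 in hispidulin+Sham mice. In AB mice they were 15.7, 14.5 and 12.6 with DMSO and 15.0, 15.0 and 14.4 with hispidulin. All pairs of groups overlapped. In Sham mice the difference with hispidulin was -0.15 (95% interval -0.40 to 0.10). Arnt was lower there in 3 of 3 same-numbered comparisons, of mice that the labels do not pair. The averaged differences were -0.05 (SE 0.08, 95% interval -0.22 to 0.13) for hispidulin and -0.06 (-0.24 to 0.11) for AB, the latter -0.02 without the third DMSO+Sham mouse.

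Ahrr, the repressor that AhR induces and that competes with it for ARNT, was the lowest of the 10 genes, with a mean of 0.663 FPKM. It did not reach the filter, so its values come from a fit to all 18079 genes. Ahrr FPKM were 1.18, 1.39 and 0.48 in DMSO+Sham mice and 0.77, 0.85 and 0.71 in hispidulin+Sham mice. After AB they were 0.19, 0.55 and 0.37 with DMSO and 0.47, 0.59 and 0.40 with hispidulin. The hispidulin+AB mice all lay below the hispidulin+Sham mice, and the DMSO groups overlapped through the third DMSO+Sham mouse. The averaged difference after AB was -0.40 (SE 0.11, 95% interval -0.65 to -0.14), with an adjusted p of 0.0878 by limma and an exact permutation p of 0.01. For hispidulin the averaged difference was -0.01 (-0.27 to 0.24).

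Tiparp, the ADP-ribosyltransferase that marks AhR for degradation, lay at a mean of 6.60 FPKM and varied widely between mice. Tiparp FPKM were 4.33, 4.88 and 8.25 in DMSO+Sham mice and 4.06, 5.95 and 7.24 in hispidulin+Sham mice. In AB mice they were 12.0, 4.75 and 3.63 with DMSO and 8.91, 5.47 and 9.77 with hispidulin. The highest and the lowest value of all mice both stood in the DMSO+AB group, and all groups overlapped. The averaged difference with hispidulin was 0.17 (SE 0.25, 95% interval -0.39 to 0.72), the widest interval but that of Cyp1a1. After AB it was 0.25 (-0.30 to 0.80), and 0.37 without the third DMSO+Sham mouse. Single mice set these values, since leaving out 1 library gave 0.02 to 0.39 for hispidulin, the ends without the third and without the first DMSO+AB mouse, and 0.03 to 0.40 for AB, without the first and without the third of the same group.

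**Figure D2:**
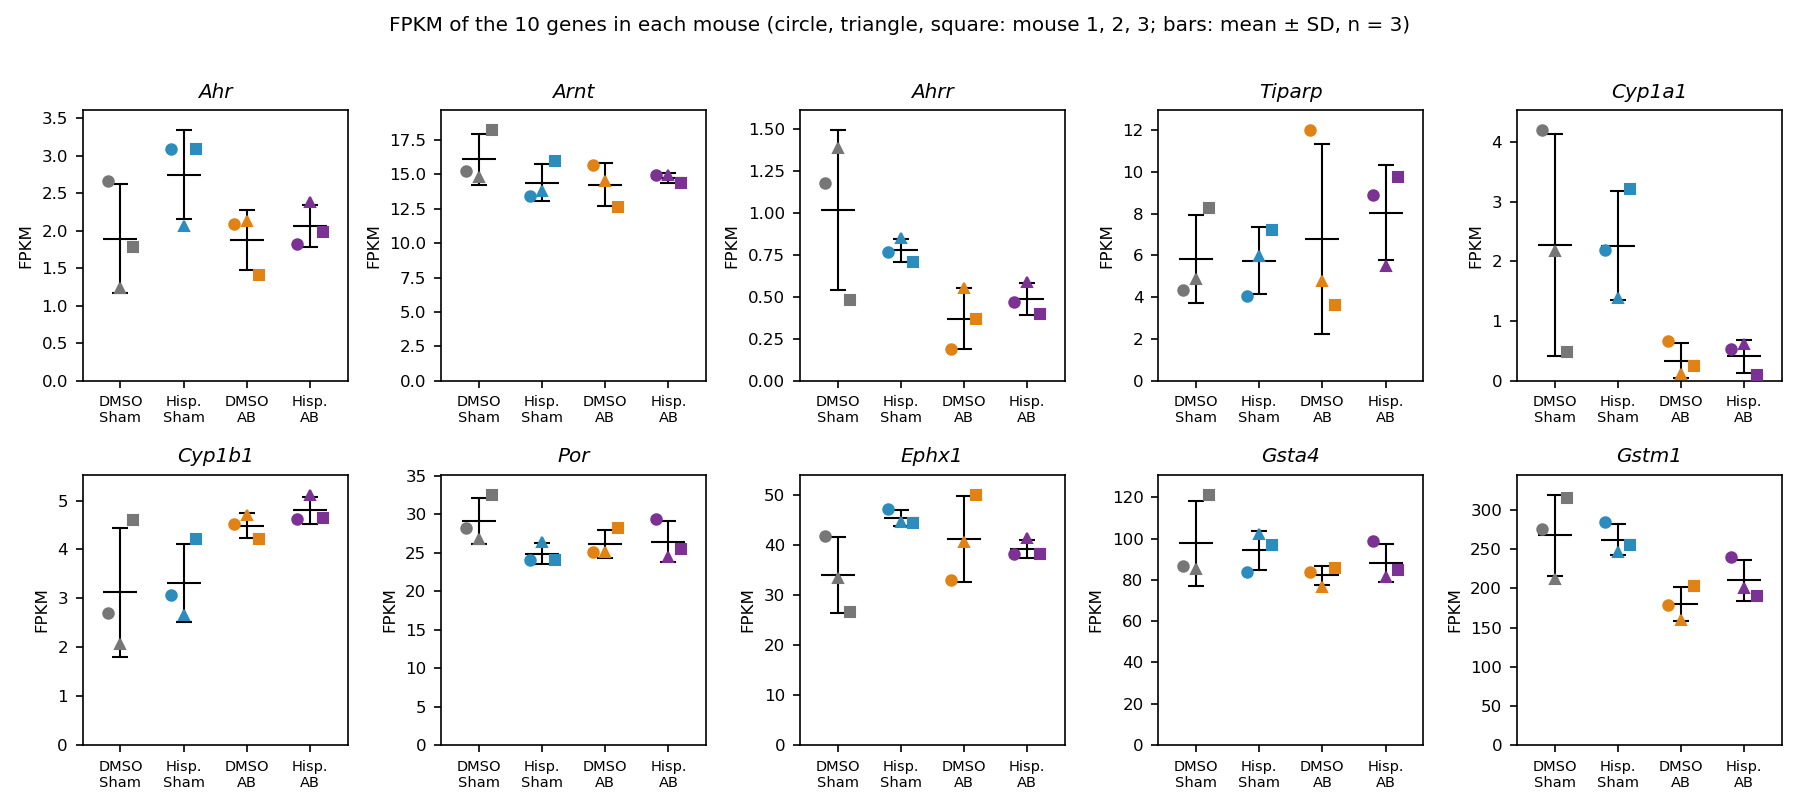
FPKM (y axes, starting at 0) of the 10 genes in each of the 12 mice, by group on the x axes, with the mean and SD of 3 mice. Cyp1a1 was at most 0.66 in the 6 AB mice and at least 1.39 in 5 of the 6 Sham mice, and the third DMSO+Sham mouse (0.48) sat among the AB mice. Groups with and without hispidulin lie side by side and overlap except for Por and Ephx1 in Sham mice.

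Cyp1a1, the oxidase whose RNA is the standard sign of an active AhR, fell after AB. Cyp1a1 FPKM were 4.20, 2.17 and 0.48 in DMSO+Sham mice and 2.2, 1.39 and 3.21 in hispidulin+Sham mice. They were 0.66, 0.11 and 0.24 in DMSO+AB mice and 0.53, 0.61 and 0.09 in hispidulin+AB mice. The hispidulin+AB mice all lay below the hispidulin+Sham mice, while the DMSO groups overlapped through the third DMSO+Sham mouse alone. The mean FPKM was 2.27 ± 1.31 (SD, n = 6) in Sham mice and 0.373 ± 0.257 (SD, n = 6) in AB mice. The averaged difference was -1.17 (SE 0.27, 95% interval -1.75 to -0.59, adjusted p = 0.0231 by limma), and the exact permutation test within treatments gave p = 0.01. The difference was -1.14 (adjusted p = 0.109) in DMSO-treated mice and -1.19 (unadjusted p = 0.00817, adjusted p = 0.511) in hispidulin-treated mice. In DMSO-treated mice it was -0.72 (adjusted p = 0.324 by limma) without the first DMSO+Sham mouse and -1.62 (adjusted p = 0.0138) without the third.

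Leaving out the third DMSO+Sham mouse gave -1.41 for Cyp1a1 (adjusted p = 0.00251 by limma). The adjusted p passed 0.05 without the first (0.0567) or the third (0.0549) hispidulin+Sham mouse, the second DMSO+AB mouse (0.0577) or the third hispidulin+AB mouse (0.0648), and in the fit without a filter (0.0551). Animal numbers in the labels fall into a 5 series and a 6 series, besides 1 mouse with a single digit. Within the 5 series Cyp1a1 differed after AB by -1.35 with DMSO and -1.34 with hispidulin, and within the 6 series by -0.12, against the third DMSO+Sham mouse alone, and -1.42. With 0.1 added in place of 1 the averaged difference was -2.29.

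Hispidulin left no difference in Cyp1a1 that could be told from the spread between mice. The difference was 0.13 (95% interval -0.69 to 0.96) in Sham mice, 0.08 (-0.74 to 0.90) in AB mice and 0.11 (SE 0.27, -0.48 to 0.69) averaged. On the FPKM + 1 scale the averaged interval runs from 0.719-fold to 1.61-fold. Of the 50-base windows of its coding transcripts, 3.43% were shared with Cyp1a2, which was listed at an FPKM of at most 0.05 in every mouse.

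Cyp1b1, the CYP1 oxidase of mesenchymal and vascular cells, was higher after AB in value, in the opposite direction from Cyp1a1. Cyp1b1 FPKM were 2.71, 2.06 and 4.60 in DMSO+Sham mice and 3.07, 2.66 and 4.21 in hispidulin+Sham mice. After AB they were 4.53, 4.71 and 4.21 with DMSO and 4.63, 5.12 and 4.65 with hispidulin. All hispidulin+AB mice lay above all hispidulin+Sham mice, and the DMSO groups overlapped through the third DMSO+Sham mouse. The averaged difference was 0.45 (SE 0.14, 95% interval 0.15 to 0.75), with an adjusted p of 0.0719 by limma and an exact permutation p of 0.015. Without the third DMSO+Sham mouse it was 0.57 (adjusted p = 0.00787), and 3 of the 9 genes then passed. It also passed with quantile normalization (0.47, adjusted p = 0.0384) and with library weights (0.53, adjusted p = 0.0045), so in 3 of 20 alternatives, over which the difference ran from 0.34 to 0.57 and the adjusted p up to 0.17. Within the 5 series the difference was 0.77 with DMSO and 0.55 with hispidulin, and within the 6 series it was 0.01, against that mouse alone, and 0.17.

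Markers of other cells are given beside these oxidases. The 5 endothelial markers summed to 266 to 282 FPKM in DMSO+Sham mice, 263 to 313 in hispidulin+Sham mice, 304 to 330 in DMSO+AB mice and 313 to 336 in hispidulin+AB mice. The 7 fibroblast markers summed to 363 to 446, 375 to 500.0, 392 to 757 and 405 to 578 in the same order, and none of either list was at 0 in every mouse of a group. The 5 smooth muscle and pericyte markers, none at 0, summed to 176 to 193, 185 to 209.9, 136 to 206 and 189 to 215. Within each treatment the endothelial sums of AB mice lay above those of Sham mice without overlap, and the fibroblast sums overlapped. With hispidulin the endothelial gap was narrow, with 312.99 as the highest Sham sum and 313.22 as the lowest AB sum. By single markers, 7 of 7 fibroblast markers were above 0 after AB averaged over treatments and 2 passed, Col1a1 (1.42) and Col1a2 (1.103), while 4 of 5 endothelial markers were above 0 and 0 passed, with 1 at an unadjusted p under 0.05 by limma. Of the smooth muscle and pericyte markers 3 of 5 were above 0, all 3 at an unadjusted p under 0.05, and 1 passed, Tagln (0.49). The part of these cells in the Cyp1b1 and Cyp1a1 values was not tested. For hispidulin the averaged difference in Cyp1b1 was 0.09 (95% interval -0.21 to 0.39).

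Por, the reductase that hands electrons from NADPH to the microsomal P450 enzymes, lay at a mean of 26.7 FPKM with a coefficient of variation of 9.56%. Por FPKM were 28.2, 26.8 and 32.6 in DMSO+Sham mice and 24.1, 26.5 and 24.1 in hispidulin+Sham mice. In AB mice they were 25.1, 25.1 and 28.2 with DMSO and 29.5, 24.5 and 25.5 with hispidulin. The 3 hispidulin+Sham mice all lay below the 3 DMSO+Sham mice, as in 2.83% of all genes tested. The difference was -0.22 (SE 0.11, 95% interval -0.45 to 0.01, unadjusted p = 0.0641 and adjusted p = 1.00 by limma) and -0.14 without the third DMSO+Sham mouse. Averaged over both operations it was -0.10 (-0.27 to 0.06), and after AB the averaged difference was -0.03 (-0.20 to 0.13), and 0.01 without that mouse.

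Ephx1, the microsomal epoxide hydrolase, was the only one of the 9 genes with an unadjusted p under 0.05 for hispidulin. Ephx1 FPKM were 41.8, 33.5 and 26.6 in DMSO+Sham mice and 47.2, 44.5 and 44.5 in hispidulin+Sham mice. After AB they were 33.0, 40.7 and 50.1 with DMSO and 38.2, 41.4 and 38.3 with hispidulin. In Sham mice the groups did not overlap and hispidulin was higher, as in 2.77% of all genes tested, while the AB groups overlapped and the DMSO+AB mice held both extremes. The difference in Sham mice was 0.43 (SE 0.16, 95% interval 0.07 to 0.79, unadjusted p = 0.0224 and adjusted p = 1.00 by limma). An exact permutation test gave p = 0.1, the smallest that 3 mice against 3 allow.

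Without the third DMSO+Sham mouse, the lowest of all, the Ephx1 difference in Sham mice was 0.27. In AB mice the difference was -0.05 (95% interval -0.41 to 0.31), and the interaction was -0.48 (-0.99 to 0.03, unadjusted p = 0.0608 by limma). The 5 erythroid markers, none at 0 in every mouse, summed to 5028, 3451 and 10251 FPKM in hispidulin+Sham mice and to 2688 to 4391 in DMSO+Sham mice. With hispidulin 5 of 5 were above 0, 2 at an unadjusted p under 0.05 by limma. Fibroblast markers were above 0 with hispidulin in Sham mice in 6 of 7, with 1 at an unadjusted p under 0.05, and their interaction was below 0 in 7 of 7. Neutrophil markers summed to 12.9, 9.9 and 59.8 FPKM in DMSO+Sham mice, the last in the third mouse, and to 1.34 to 14.2 in hispidulin+Sham mice. In AB mice they summed to 5.4 to 26.4 with DMSO and 22.0 to 37.7 with hispidulin. The interaction of these markers was above 0 in 4 of 4 tested, 3 at an unadjusted p under 0.05 by limma. By limma 0 of these markers passed, and the part of these cells in the Ephx1 values was not tested. The hispidulin+AB mice all lay below the hispidulin+Sham mice for Ephx1, by -0.20 (-0.56 to 0.15). Averaged, Ephx1 differed by 0.19 (-0.06 to 0.44) for hispidulin and by 0.04 (-0.22 to 0.29) for AB, the latter -0.04 without the third DMSO+Sham mouse.

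Gsta4, the alpha-class transferase that detoxifies lipid aldehydes such as 4-hydroxynonenal, lay at a mean of 90.7 FPKM. Gsta4 FPKM were 86.6, 85.3 and 121 in DMSO+Sham mice and 83.9, 102 and 96.9 in hispidulin+Sham mice. In AB mice they were 83.8, 76.8 and 86.0 with DMSO and 98.7, 81.4 and 85.1 with hispidulin. The 121 of the third DMSO+Sham mouse was the highest and the 76.8 of the second DMSO+AB mouse the lowest, and all pairs of groups compared overlapped. The averaged differences were 0.03 (SE 0.10, 95% interval -0.18 to 0.25) for hispidulin and -0.16 (-0.38 to 0.05) for AB. They were 0.11 and -0.08 without the third DMSO+Sham mouse.

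Gstm1, the mu-class transferase, was the highest of the 10 genes at a mean of 230.1 FPKM, in the 98.0th percentile of all genes in the table, and fell after AB. Gstm1 FPKM were 276, 212 and 315 in DMSO+Sham mice and 285, 246 and 255 in hispidulin+Sham mice. They were 178, 160.1 and 203 in DMSO+AB mice and 240.1, 200.01 and 190.1 in hispidulin+AB mice. Within each treatment every AB mouse lay below every Sham mouse, as in 10.8% of all genes tested with DMSO and 11.8% with hispidulin. The averaged difference was -0.44 (SE 0.10, 95% interval -0.67 to -0.21, adjusted p = 0.0278 by limma), and the exact permutation test gave p = 0.005, the smallest that it can give. With DMSO the difference was -0.55 (adjusted p = 0.0537) and with hispidulin -0.32 (adjusted p = 0.682).

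The adjusted p of Gstm1 exceeded 0.05 without the first DMSO+Sham mouse (0.0707), any one of the hispidulin+Sham mice (0.0721, 0.0563 and 0.0526), the second DMSO+AB mouse (0.0663) or the second or the third hispidulin+AB mouse (0.0653 and 0.0754). It was 0.0554 without a filter and 0.0715 when the animal-number series was a covariate, and the difference stayed between -0.52 and -0.37 in all alternatives run. Without the third DMSO+Sham mouse it was -0.37 (adjusted p = 0.0363 by limma). Within the 5 series it was -0.06 with DMSO and -0.48 with hispidulin, and within the 6 series -0.89, against the third DMSO+Sham mouse alone, and -0.22, with 1 or 2 mice on each side. In AB mice hispidulin differed from DMSO by 0.22 (-0.11 to 0.54, adjusted p = 0.996 by limma), with overlapping groups, and averaged over both operations by 0.10 (-0.13 to 0.33). With 1 library left out the former ran from 0.12, without the first hispidulin+AB mouse, to 0.31, and the latter from 0.02, without the second DMSO+Sham mouse, to 0.17. Of the 50-base windows of Gstm1 coding transcripts in the GENCODE annotation, 19.9% were shared with other genes, 14.9% with the pseudogene Gstm2-ps1, so that its FPKM depends on how the authors' tools divided such reads.

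Other genes of the pathway were taken from 10 lists with 159 symbols, of which 133 were in the table and 84 were tested. For hispidulin averaged over both operations 0 of the 84 passed, 41 were higher and 43 lower, and their median was 0.00, as for all genes tested. Of the 18 other genes known as AhR-inducible, 8 were tested and 0 passed in any comparison. For hispidulin averaged over both operations, 1 of the 8 was higher (Xdh) and 7 were lower, with a median of -0.11. Of all genes tested 5990 of 11664 were lower. Cyp1a2, the hepatic CYP1 oxidase, was listed at 0.05 FPKM at most, and the pregnane X receptor Nr1i2 at 0.07 at most. Xdh, xanthine dehydrogenase, had both the highest level of this list (75.9 FPKM) and its largest difference with hispidulin, 0.33 (95% interval -0.22 to 0.88), which was 0.05 without the second DMSO+Sham mouse and 0.51 without the third. Of the ARNT family and partners, Epas1, the hypoxia factor HIF-2 alpha, differed by 0.17 (-0.03 to 0.36), and by 0.10 to 0.22 with 1 library left out. Arntl differed by -0.45 (-1.16 to 0.25), which was -0.11 without the third DMSO+Sham mouse and -0.69 without the second.

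Among P450 enzymes of other families 0 of 10 passed in any comparison. Cyp4b1, the highest of them, differed by 0.13 (-0.18 to 0.44) with hispidulin, and Cyp2e1 by 0.21 (-0.51 to 0.92). With 1 library left out Cyp4b1 ran from 0.04 to 0.23 and Cyp2e1 from -0.10 to 0.40. Among the conjugating glucuronosyl-, sulfo-, methyl- and acetyltransferases 0 of 4 tested passed.

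After AB, averaged over both treatments, 9 of the 84 were lower with an adjusted p under 0.05 by limma and 1 was higher, against 3.87% lower and 3.52% higher of all genes tested, and the median of the 84 was -0.08 against -0.03 for all genes tested. Other glutathione transferases were the list with the most genes that passed, with 4 of 17 lower, 0 higher, 16 of 17 below 0 and a median of -0.25. Of all genes tested 6509 of 11664 were below 0. Cardiomyocyte markers were below 0 in 4 of 6 and 1 passed, Ryr2 (-0.38), and their part in these values was not tested. Gstk1, the mitochondrial and peroxisomal transferase, differed by -0.59 (SE 0.09, adjusted p = 0.00535 by limma). Its FPKM were 103, 96.5 and 103 in DMSO+Sham mice and 101, 94.96 and 95.2 in hispidulin+Sham mice, against 72.1, 50.3 and 55.2 in DMSO+AB mice and 83.1, 74.8 and 63.3 in hispidulin+AB mice. Every AB mouse was thus below every Sham mouse, as in 2.8% of all genes tested. In AB mice hispidulin differed from DMSO for Gstk1 by 0.32 (95% interval 0.03 to 0.61, unadjusted p = 0.033 and adjusted p = 0.996 by limma), with overlapping groups. It was the only 1 of the 84 genes with an unadjusted p under 0.05 in that comparison, against 3.1% of all genes tested. No alternative was run for this difference.

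Of the mu class, Gstm2 differed by -0.48 (adjusted p = 0.0107 by limma) and Gstm7 by -0.56 (adjusted p = 0.0139), and Gstp1 of the pi class by -0.25 (adjusted p = 0.0319). Gstk1, Gstm2 and Gstm7 passed in all 21 alternatives and Gstp1 in 11 of 21, and 51.0% of the Gstp1 windows were shared with Gstp2. Ephx2, the soluble epoxide hydrolase, differed by -0.40 (adjusted p = 0.0167) and passed in 20 of 21, with 0.0502 without the third hispidulin+AB mouse. In DMSO-treated mice alone 5 of the 84 passed, all lower, against 5.21% of all genes tested (2.71% lower), namely Gstk1 (-0.77), Gstm7 (-0.75), Gstm2 (-0.62), Rxra (-0.55) and Ephx2 (-0.54). With only the 6 DMSO mice in the fit their adjusted p was between 0.12 and 0.211.

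The other genes that passed after AB were Rxra, the shared partner of nuclear xenobiotic receptors (-0.37), the coactivator Ncoa2 (-0.33), the reductase Cyb5r2 (-0.57) and Abcb1a, a drug efflux pump (-0.41), all lower. Fdx2, a mitochondrial ferredoxin, was higher (0.30). They passed in 15 of 21 alternatives for Rxra, 10 of 21 for Ncoa2, 10 of 20 for Cyb5r2, 16 of 21 for Abcb1a and 7 of 21 for Fdx2. Of the 50-base windows of Abcb1a, 18.6% were shared with other genes.

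**Figure D3:**
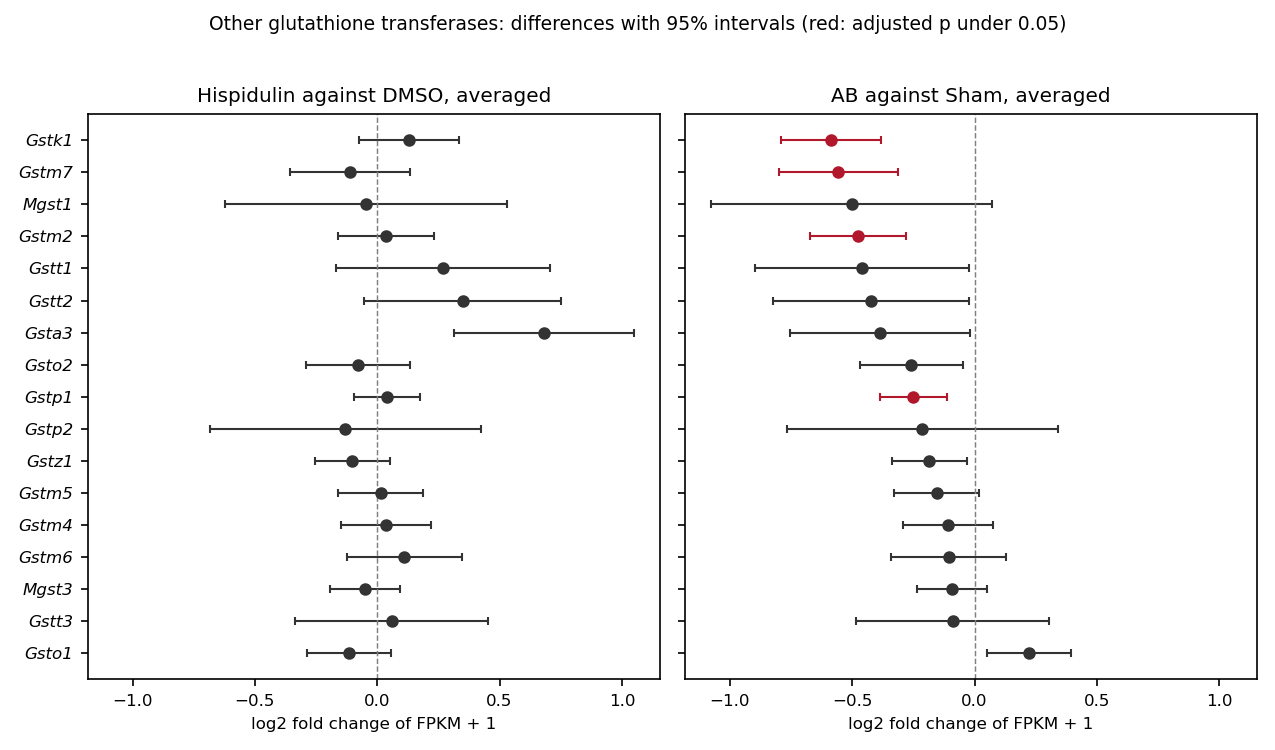
Log2 fold changes of FPKM + 1 (x axis) with 95% intervals for the 17 other glutathione transferases tested (y axis), for hispidulin against DMSO on the left and AB against Sham on the right, each averaged. On the right 16 of the 17 points lie below 0 and 4 are red (adjusted p under 0.05), and on the left none is red and Gsta3 lies farthest from 0.

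Gsta3, an alpha-class transferase, had the largest difference with hispidulin of the 84 genes when averaged over both operations, though not in AB mice alone. It is given here because of that, having been chosen after its values were seen. Gsta3 FPKM were 11.6, 5.30 and 6.32 in DMSO+Sham mice and 14.1, 15.6 and 15.2 in hispidulin+Sham mice. After AB they were 5.70, 8.06 and 6.23 with DMSO and 12.4, 7.83 and 8.06 with hispidulin. The Sham groups did not overlap, with hispidulin higher, as in 2.77% of all genes tested, and the AB groups overlapped. The averaged difference was 0.68 (SE 0.17, 95% interval 0.31 to 1.05, unadjusted p = 0.00165 and adjusted p = 0.999 by limma), and it did not pass the correction over all genes. It was 0.93 in Sham mice and 0.43 (-0.09 to 0.95) in AB mice, and stayed between 0.49 and 0.84 averaged in all alternatives run. In Sham mice it was 0.54 with library weights, and in AB mice 0.24 without the first hispidulin+AB mouse. These refits use the mice by which the gene was chosen. None of the 50-base windows of Gsta3 was shared with another gene. At an unadjusted p under 0.05 by limma there were 3 higher and 1 lower of the 84, against 2.97% of all genes tested, namely Gsta3, Abcb1a (0.27), the P450 enzyme Cyp2j6 (0.20) and, lower, the NF-kappaB subunit Rela (-0.22), the last 2 also chosen after their values were seen.

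**Figure D4:**
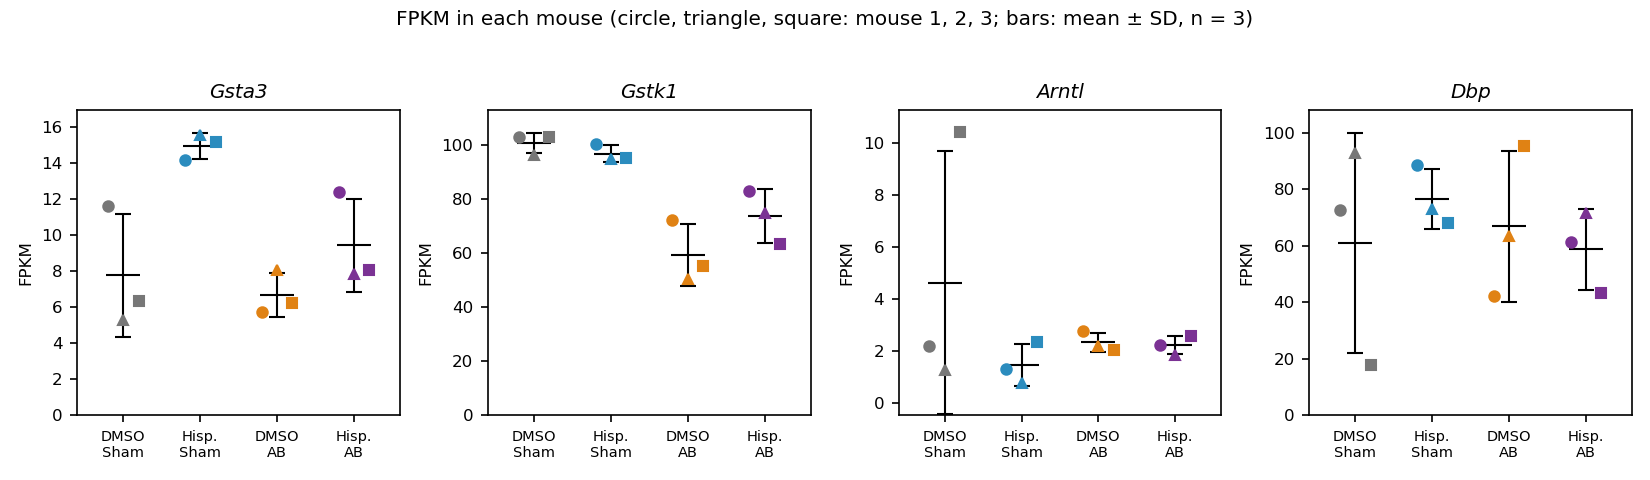
FPKM (y axes) of Gsta3, Gstk1, Arntl and Dbp in each of the 12 mice, by group on the x axes, with the mean and SD of 3 mice. Gsta3 was at least 14.1 in the 3 hispidulin+Sham mice and at most 12.4 in the others, Gstk1 was at most 83.1 in AB mice and at least 94.96 in Sham mice, and the third DMSO+Sham mouse stood apart with Arntl at 10.4 and Dbp at 17.6.

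As a description of how these genes varied, the tested gene most like each was found by Pearson's r of log2(FPKM + 1) over the 12 mice, which share groups and surgery. It was Rassf9 for Ahr (r = 0.899), Rlim for Arnt (0.955), Plxna2 for Tiparp (0.951), Rps6ka5 for Cyp1a1 (0.954) and Hpcal1 for Cyp1b1 (0.954). For Por it was Cxcl14 (0.872), for Ephx1 Mbtps1 (0.922), for Gsta4 Jade2 (0.917) and for Gstm1 Pcp4l1 (0.964). Among the 10 genes themselves the highest r was that of Ahrr and Cyp1a1 (0.756), and larger in size were the negative ones of Ahrr and Cyp1b1 (-0.85) and of Arnt and Ephx1 (-0.808).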

How the data were processed

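Left ventricular RNA of 12 mice was sequenced, 1 library each, with groups taken from the sample labels. The authors obtained single-end reads of polyadenylated RNA and deposited FPKM in 1 table, rounded to 0.01. HISAT2 2.0.4, Bowtie2 2.2.5, RSEM 1.2.12 and DESeq2 1.4.5 are named in the submitters' processing notes, without a role. The genome build, annotation and filters on reads or genes are not given in the sources used here. Estimated reads of near-identical genes may be divided among them by such tools. Ratios of low values lay within 0.1 of a whole number in 18.8% of 9800 cases, against 20% if evenly spread, so depth could not be recovered and no counting error is given.

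Symbols were found for 17947 of 18079 identifiers (99.3%) in the RefSeq gene table. Log2(FPKM + 1) of 11664 genes, those reaching 1 FPKM in 3 libraries or more, was fitted in R 4.3.3 with limma 3.58.1, with 1 mean per group, eBayes moderation along the mean-variance trend, two-sided tests and Benjamini-Hochberg adjustment (8 error degrees of freedom ahead of moderation). The 7 comparisons were hispidulin against DMSO and AB against Sham, each within the 2 levels of the other factor and averaged, and their interaction. Single values were tested by two-sided exact permutation of mice (400 arrangements within strata for averaged comparisons, 20 for 3 mice against 3). The 10 genes, lists and markers were chosen with earlier results of these data known. From each list, genes that passed in any comparison are named, or else the gene of highest FPKM and that of largest difference with hispidulin, except for 1 gene that is not reported here.

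Alternatives were a pseudocount of 0.1, no filter or one at 5 FPKM, scaling by median of ratios or by quantiles, moderation without the trend, library weights, a covariate for the animal-number series, a fit of the compared libraries alone, the replicate number as a block, and each library left out. Same-numbered libraries are different animals. Residual correlations of same-numbered libraries were 0.126, 0.330 and 0.232 for hispidulin in Sham mice and 0.147, 0.197 and 0.228 for AB in hispidulin-treated mice. They were 0.300, 0.176 and -0.183 for hispidulin in AB mice. The labels give no pairing, and the main fit used none. Promoters were read from RefSeq and shared windows from GENCODE transcripts, with Python 3.11.15. Replicates are separate mice.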

Additional observations from a re-analysis of the deposited data

How the results depend on the processing

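The number of the 10 genes past an adjusted p of 0.05 after AB, averaged over treatments, was 2. It was 0 without a filter, 1 with an FPKM of at least 5, 1 when the animal-number series was a covariate, 3 with quantile normalization, 3 with library weights (Cyp1b1 added in both), and 0 to 3 when 1 library was left out. In DMSO-treated mice that number was 0. It was 1 with an FPKM of at least 5, 1 with quantile normalization, 3 with library weights, 1 with the replicate block (Gstm1, adjusted p = 0.0367 by limma) and 0 to 2 when 1 library was left out, with Gstm1 passing without the second DMSO+Sham mouse and Cyp1a1 and Cyp1b1 without the third. Same-numbered libraries there correlated by -0.02, -0.04 and -0.20, and the labels give no pairing. The block changed no other count of these genes. For hispidulin, for AB in hispidulin-treated mice and for the interaction the count was 0 under all alternatives run. Over all genes tested, the count after AB was 862 averaged (376 to 2535 under alternatives), 608 in DMSO-treated mice (11 with the 6 mice alone, 1423 with library weights) and 0 in hispidulin-treated mice (up to 209).

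For 58 results of single genes, 1039 differences were recomputed by refits of the same 12 libraries. Some of these genes had been chosen because they passed, so their direction was likely to hold. Of the differences, 1027 kept their direction and 12 reversed, the latter in 6 results and none with an adjusted p under 0.05 by limma. With library weights the hispidulin difference was -0.20 for Cyp1a1 and -0.0959 for Cyp2e1, and the AB difference of Ephx1 was -0.0936. With 1 library left out, the hispidulin difference ran from -0.14 to 0.32 for Cyp1a1, from -0.00737 to 0.21 for Cyp1b1, from -0.0122 to 0.11 for Gsta4 and from -0.10 to 0.40 for Cyp2e1. The AB difference ran from -0.0724 to 0.00541 for Por and from -0.0439 to 0.11 for Ephx1. The cause was not tested. Depth is unknown, so no limit of detection can be set for the lowest genes, Ahrr and Cyp1a1.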
